A study of Mus musculus with 10 samples.

Results

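The slow fiber sarcomere genes were followed in bulk RNA-seq of gastrocnemius (GAS) from mice with diet-induced obesity (DIO). The 10 genes were chosen by symbol (Myh7, Myh7b, Myl2, Myl3, Myl6b, Tnnc1, Tnni1, Tnnt1, Tpm3 and Myoz2), out of 21098 genes in the count table. The rule uses no measured value, although earlier results of these data were known when the list was drawn up. All mice were wild-type males, labelled C57BL/6J and named C57BL/6JBomTac in the study's methods, that received a high fat diet from 9 weeks of age, for 9 weeks before the first injection and during treatment. They are described as 30 weeks old at the end, which is less than the stated periods add up to. The ASO group (5 libraries) received 10 mg/kg of an anti-miR-22 antisense oligonucleotide, labelled RES-010, under the skin once a week for 14 weeks. The CTRL group (5 libraries) received the same volume of 0.9% saline on the same schedule, so that the diet and the injections were common to both groups and no lean or uninjected group was part of the comparison.

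Muscle fibers contract when calcium binds troponin C on the thin filament, which moves tropomyosin and lets myosin heads pull on actin. Slow (type I) fibers build this machinery from their own set of proteins, namely a slow myosin heavy chain with its light chains, slow troponins C, I and T, slow tropomyosin and the Z-disc protein calsarcin-1. Fast fibers use paralogues of nearly every one of them. Mouse GAS is mostly a fast muscle, and its slow fibers lie in the deep part.

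Each gene was counted only on short segments at the 3′ ends of its transcripts, so the position of the segment set what could be seen (GRCm39 coordinates). Myh7 was counted on chr14:55208141-55208249 (minus strand), 109 bp of its 3′UTR that lie wholly within exons of the antisense RNA Mhrt on the plus strand. Counting was not stated to use strand, so reads of both could not be told apart. In the same way, 99 of the 216 bp of the Myh7b segment (chr2:155476012-155476227, plus) overlap an exon of Trpc4ap, and 184 of the 298 bp of the Myl6b segment (chr10:128330026-128330323, minus) overlap A430046D13Rik. Myl2 held 98.1% of its counts on an 85 bp 3′UTR segment at chr5:122244833-122244917 (plus), and Myl3 all of them on chr9:110598512-110598866 (plus).

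For Tnnc1, 99.4% of the counts fell on chr14:30933267-30933593 (plus), a segment that covers 136 bp of coding sequence and 102 bp of 3′UTR of the main transcript. For Tpm3, 99.9% fell on the segment of an upstream 3′ end (chr3:89999242-89999437, plus), while the 3 segments at the most distal end overlap each other nearly completely and held 0 counts. Tnnt1 had 0 counts in all 10 libraries, and no base of its 3 segments (the longest is chr7:4507569-4507753, minus) lies outside another of them. The 0 of Tnnt1 therefore gave no information on its level. Tnni1 has 3 identical segments at its most distal end (chr1:135738228-135738727, plus), which held 0 counts, and was counted on the segments before them.

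The ASO binds miR-22, so matches to that miRNA in the members are shown first. Mature mmu-miR-22-3p (RefSeq, GRCm38.p6) is printed with its seed, bases 2 to 8, in capitals.
mmu-miR-22-3p: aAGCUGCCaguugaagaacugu
The longest annotated 3′UTR of each member was searched on the sense strand for GGCAGCT, the complement of the seed, and for the 6-base core GCAGCT, which every GGCAGCT also contains. Myoz2 was the only one of the 10 members with GGCAGCT, compared with 21.7% of 7781 tested genes. GCAGCT was present in Myoz2, Tnnc1 and Tpm3, compared with 52.5% of those genes. The matches are given with their flanks on GRCm39, with the matching bases in capitals.
Myoz2, chr3:122799024-122799052 (minus): agcacctacatGGCAGCTcacaactaact
Myoz2, chr3:122797750-122797778 (minus): tgacctgaaaaGCAGCTagagtttttcag
Tnnc1, chr14:30933548-30933576 (plus): gtggtaggagtGCAGCTgggctctctaga
Tpm3, chr3:90007621-90007649 (plus): ccaaacttatcGCAGCTctacccctttcc
The Tpm3 match lies in the distal 3′UTR, away from the upstream end on which nearly all Tpm3 counts fell. The Myoz2 matches lie downstream of its counted segments, the nearest of which is chr3:122799855-122800031 (minus). The Myoz2 3′UTR searched has 2633 bp, while those of Tnni1 and Tnnt1 have 382 and 190 bp, and the median over the tested genes was 2027 bp.

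The promoters of the members (250 bases before to 50 after the start, RefSeq, GRCm38.p6) were searched on both strands for the MCAT motif CATTCC, which TEAD factors bind. All 10 members matched a promoter. MCAT was present in Myh7, Myl3 and Tnnc1, compared with 16.6% of 27025 genes. One match of each gene is printed, with the motif in capitals.
Myh7, chr14:54994812-54994837 (plus, opposite to the gene): atatctctaaCATTCCacggctcact
Myl3, chr9:110763519-110763544 (plus): ctcccccaccCATTCCtgggcttgaa
Tnnc1, chr14:31208244-31208269 (minus, opposite to the gene): cctcctgctaCATTCCcagcccagcc
A match describes the letters in the window and is not a measured site, and its relation to the levels of the members was not tested.

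The libraries held 1606909 to 2116720 counts in CTRL and 2239186 to 2632560 in ASO, so every ASO library was deeper. Of 7813 genes that passed the filter on low counts, 920 were higher and 1363 lower in ASO at an adjusted p-value of 0.05 (edgeR quasi-likelihood test with Benjamini-Hochberg adjustment), which is 11.8% and 17.4%. With scaling by total counts the split was 528 higher and 1819 lower, with upper quartile scaling 1262 and 1206, and total counts moved the median log2 fold change of all tested genes by -0.18. The 10 markers of the labelled tissue summed to 44166 to 83456 CPM (counts scaled by depth with TMM) in CTRL. In ASO the sum was 88886 to 137049 CPM, without overlap. Most of it was Acta1 and Ckm. Mylpf and Tnnt3 were at 0 counts, and Myh1, Des and Myh4 had 1, 35 and 42 counts over all libraries. The labels number the libraries without tying each to its own mouse, so the p-values measure the spread between these libraries. The host transcript of miR-22 was not analysed here, and the labels give no batch.

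Among the slow fiber sarcomere genes, 1 passed the test, and it was higher in ASO. Myl6b, an essential light chain, rose by 1.72 ± 0.56 on the log2 scale (SE), while the other 6 tested members had log2 fold changes of 0.71 to 1.70 with SEs of 0.85 to 1.41 and did not pass. No member was lower, and at an unadjusted p under 0.05 (edgeR, limma-voom or DESeq2) the count of lower members was also 0. The count of 1 of 7 tested members higher and 0 of 7 lower stands beside 11.8% and 17.4% of all tested genes. The median log2 fold change of the 7 was 1.51, compared with -0.03 over all tested genes. In no member did the 5 ASO libraries lie all above or all below the 5 CTRL libraries, whereas 7.97% of tested genes had all ASO libraries above and 13.4% all below. Tnnt1, Tnni1 and Myh7b did not pass the filter.

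The sign of most of these fold changes depended on 1 library, and also on the fit. Without ASO replicate 4, the median of the 7 was -0.31, the log2 fold changes of Myh7, Myl3, Tnnc1, Tpm3 and Myoz2 were below 0, those of Myl2 and Myl6b were 0.34 and 0.71, and no member passed the test. With limma-voom and all 10 libraries, 5 of the 7 log2 fold changes were below 0 and no member was called.

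**Figure D1:**
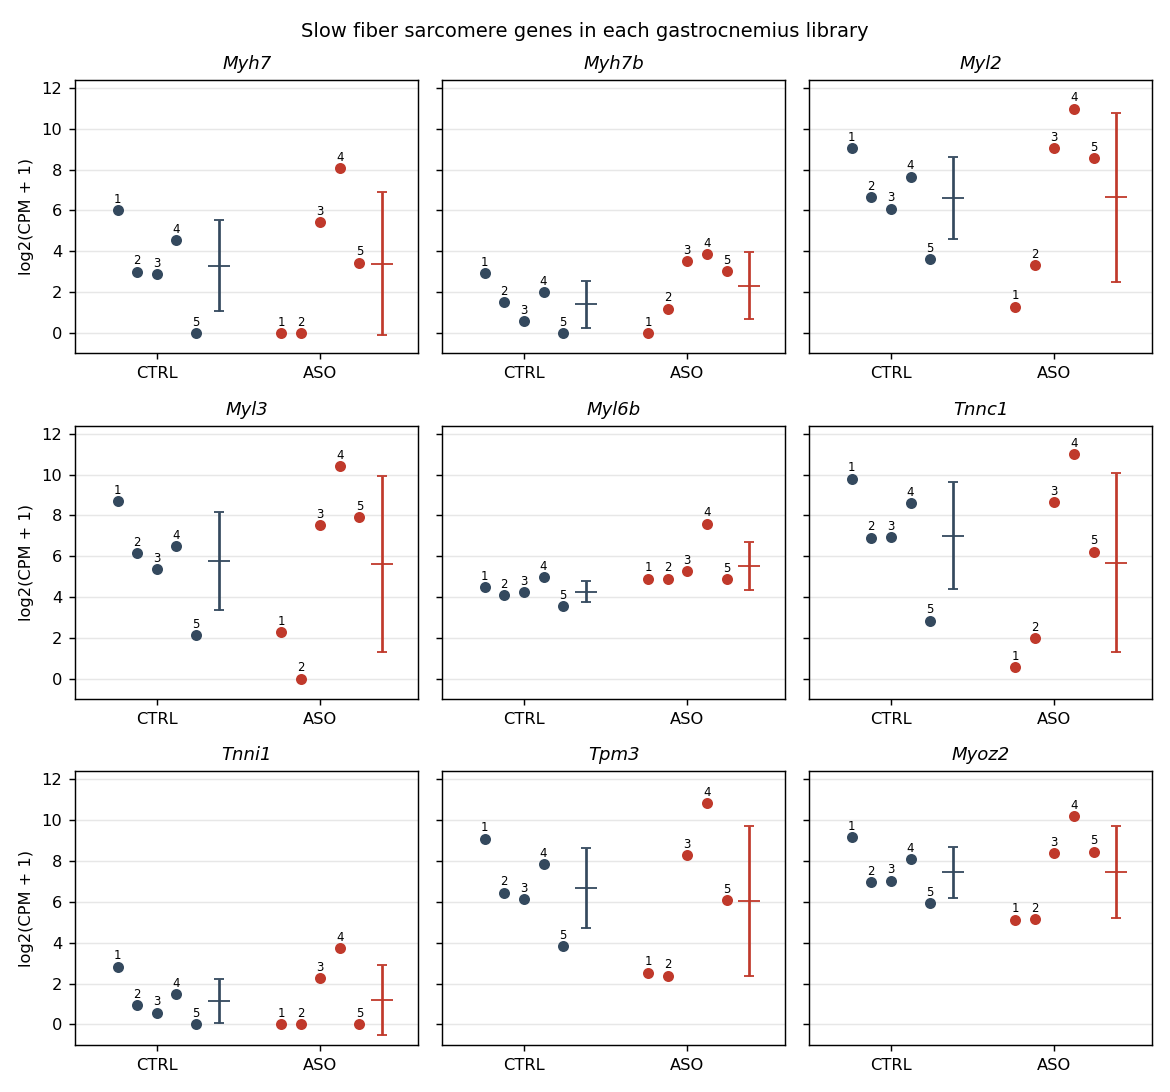
Level of the 9 slow fiber sarcomere genes with counts, as log2(CPM + 1), in each CTRL (dark) and ASO (red) library, with the replicate number above each point and the group mean ± SD (n = 5) at the right of each group. ASO replicate 4 is the highest of all 10 libraries in each panel, and ASO replicates 1 and 2 and CTRL replicate 5 are the 3 lowest in the panels of Myh7, Myl2, Myl3, Tnnc1, Tpm3 and Myoz2.

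Of the myosin heavy chains, Myh7 encodes the motor that defines slow fibers and is shared with the heart. Myh7 was at 0, 0, 42.3, 268 and 9.90 CPM in ASO replicates 1 to 5 and at 63.7, 6.99, 6.42, 22.4 and 0 CPM in CTRL replicates 1 to 5. The other 4 ASO libraries lay within the control range and ASO replicate 4 above every control library, with no Myh7 read in ASO replicates 1 and 2 or in CTRL replicate 5. A count of 0 allows up to 1.45 CPM in ASO replicate 1, 1.27 CPM in ASO replicate 2 and 1.69 CPM in CTRL replicate 5, for counting error only. The means ± SD over 5 libraries were 64.0 ± 115 CPM for ASO and 19.9 ± 25.8 CPM for CTRL. The log2 fold change was 1.68 ± 1.29 (SE, adjusted p = 0.35, edgeR), and the mean of log2(CPM + 1) differed by 0.10 (exact permutation test, two-sided, p = 0.98).

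Myh7b encodes a related heavy chain found at low levels in slow muscle and heart. It had 99 counts in all, with 0, 3, 25, 32 and 15 in ASO replicates 1 to 5 and 14, 4, 1, 5 and 0 in CTRL replicates 1 to 5. Its libraries followed an order much like that of Myh7, with ASO replicate 1 and CTRL replicate 5 at 0. In the fit without the filter its log2 fold change was 1.41 ± 0.84 (SE, adjusted p = 0.29, edgeR).

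The light chains wrap the lever arm of the myosin head, 1 regulatory and 1 essential chain per head. Myl2, the slow regulatory chain, was at 1.45, 8.92, 529, 2022 and 376 CPM in ASO replicates 1 to 5 and at 525, 99.8, 67.2, 201 and 11.2 CPM in CTRL replicates 1 to 5. ASO replicates 3 and 4 lay above every control library and ASO replicates 1 and 2 below every one, so the ASO group spanned the control group on both sides. The log2 fold change was 1.70 ± 1.27 (SE, adjusted p = 0.34, edgeR), with a difference of 0.03 in the mean of log2(CPM + 1).

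Myl3, the essential chain of slow fibers and of the cardiac ventricle, was at 3.86, 0, 184, 1360 and 239 CPM in ASO replicates 1 to 5. In CTRL replicates 1 to 5 it was at 420, 70.9, 40.0, 90.3 and 3.37 CPM. The highest and the lowest library were both ASO libraries, and CTRL replicate 5 was as low as ASO replicate 1. The log2 fold change of 1.51 ± 1.35 (SE, adjusted p = 0.42, edgeR) went with a difference of -0.15 in the mean of log2(CPM + 1).

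Myl6b, an essential chain found in slow fibers and also outside muscle, was at 28.97, 28.9, 38.1, 192 and 28.8 CPM in ASO replicates 1 to 5 and at 21.7, 15.9, 17.8, 30.7 and 10.7 CPM in CTRL replicates 1 to 5. CTRL replicate 4 was above 3 of the ASO libraries, and the other 4 control libraries were below all ASO libraries. The means were 63.4 ± 72.2 and 19.3 ± 7.48 CPM (SD over 5 libraries of each group), and the adjusted p was 0.037 (edgeR). The mean of log2(CPM + 1) was 1.25 higher in ASO (exact permutation test, two-sided, p = 0.032). Leaving out 1 library at a time gave Myl6b log2 fold changes of 0.71 to 1.93 and adjusted p-values of 0.027 to 0.084, with 5 of the 10 fits past 0.05 (edgeR). Its call was lost without ASO replicate 4, CTRL replicate 1, CTRL replicate 2, CTRL replicate 3 or CTRL replicate 5, at adjusted p-values of 0.056, 0.056, 0.070, 0.065 and 0.084 (edgeR).

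Troponin C is the calcium sensor of the thin filament, and Tnnc1 is its slow and cardiac form. Tnnc1 was at 0.48, 2.97, 397, 2054 and 74.0 CPM in ASO replicates 1 to 5 and at 888, 119, 121, 383 and 6.18 CPM in CTRL replicates 1 to 5. From ASO replicate 1 to ASO replicate 4 the count went from 1 to 4921. Its log2 fold change was 0.74 ± 1.41 (SE, adjusted p = 0.72, edgeR), whereas the mean of log2(CPM + 1) was 1.33 lower in ASO, shown as a difference of -1.33 (exact permutation test, two-sided, p = 0.58). The sign of the Tnnc1 difference thus depended on whether levels or their logarithms were averaged.

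Tnni1 encodes slow troponin I, the inhibitory subunit. It had 58 counts in all, 0, 0, 9, 30 and 0 in ASO replicates 1 to 5 and 13, 2, 1, 3 and 0 in CTRL replicates 1 to 5. The 2 libraries with the most counts, ASO replicate 4 and CTRL replicate 1, were those that also led for Tnnc1. The log2 fold change without the filter was 0.78 ± 1.09 (SE, adjusted p = 0.66, edgeR). No difference was detectable for Tnni1 at these counts, which do not include its most distal end. Tnnt1, slow troponin T, which anchors the complex to tropomyosin, could not be assessed.

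Tropomyosin runs along the thin filament, and Tpm3 encodes its slow form. Tpm3 was at 4.83, 4.25, 316, 1847 and 67.9 CPM in ASO replicates 1 to 5 and at 549, 87.2, 69.2, 229 and 13.5 CPM in CTRL replicates 1 to 5. ASO replicates 1 and 2 were below all controls and ASO replicate 4 was above all of them. Its log2 fold change was 1.24 ± 1.30 (SE, adjusted p = 0.50, edgeR), with a difference of -0.64 in the mean of log2(CPM + 1).

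At the Z-disc, Myoz2 encodes calsarcin-1, which tethers the phosphatase calcineurin in slow fibers and heart. Myoz2 was at 34.3, 35.3, 332, 1174 and 352 CPM in ASO replicates 1 to 5 and at 583, 123, 131, 276 and 61.2 CPM in CTRL replicates 1 to 5. ASO replicates 1 and 2 were again below every control library. The log2 fold change was 0.71 ± 0.85 (SE, adjusted p = 0.56, edgeR), with a difference of 0.02 in the mean of log2(CPM + 1). Myoz2, the member with the full seed match, did not pass the test. Its matches lie downstream of the segments on which it was counted. The counts therefore do not show whether the transcripts counted carried them.

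Myoz2 was counted on 2 segments, chr3:122799855-122800031, which lies in its 3′UTR, and chr3:122800166-122800665, which holds 101 bp of coding sequence and mostly intron. The share of its counts on the 3′UTR segment was 56.3%, 61.4%, 64.5%, 56.7% and 62.7% in ASO replicates 1 to 5 and 47.3%, 54.5%, 41.1%, 47.0% and 46.8% in CTRL replicates 1 to 5. The 2 groups did not overlap, although the Wilson 95% interval of ASO replicate 1 (44.8% to 67.3%, counting error only) reached over most control values. This share was singled out after its values were seen and is given without a test. The fit per segment gave log2 fold changes of 1.099 ± 0.83 and 0.40 ± 0.84 (SE) for the 3′UTR and the upstream segment, with adjusted p-values of 0.31 and 0.72 (edgeR).

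**Figure D2:**
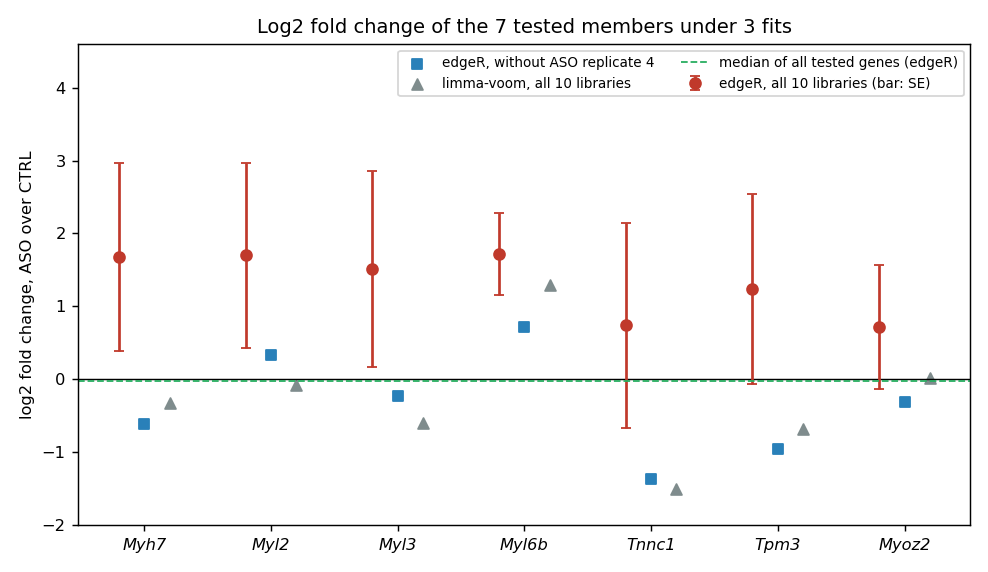
Log2 fold change (ASO over CTRL) of the 7 tested members in the edgeR fit with all 10 libraries (circles, bars are SE), in the same fit without ASO replicate 4 (squares) and with limma-voom (triangles); the dashed line is the median of all tested genes, -0.03. All 7 circles lie above 0, while 5 squares and 5 triangles lie below it, and Myl6b stays above 0 in each fit.

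The spread between libraries of the same group was large for these genes. Ranked by the SD of log2(CPM + 1) within groups, Tnnc1 (3.62), Myl3 (3.49), Myl2 (3.25), Tpm3 (2.95) and Myh7 (2.94) took places 1 to 5 of 7813 tested genes, and Myoz2 (1.80) place 37. Myl6b, at 0.91, was at place 307, and the median over all tested genes was 0.34. The spread was present in both groups, since the highest control library exceeded the lowest by 144-fold for Tnnc1, 125-fold for Myl3, 46.8-fold for Myl2, 40.7-fold for Tpm3 and 9.53-fold for Myoz2. The 6 tested fast sarcomere genes had SDs of 0.33 to 0.76.

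**Figure D3:**
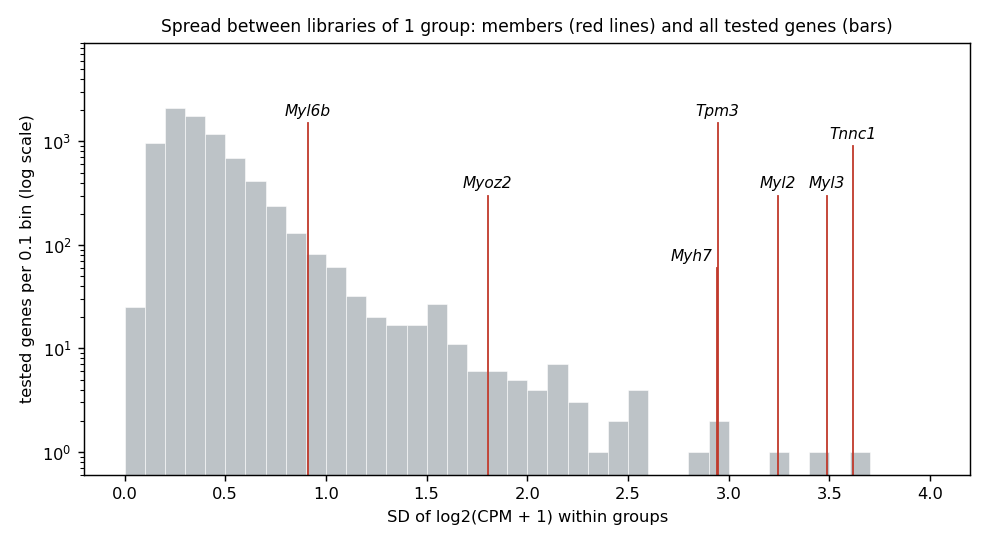
Histogram of the SD of log2(CPM + 1) within groups for the 7813 tested genes (bars, log scale on the vertical axis), with the 7 tested members as red lines whose height has no meaning. The lines of Tnnc1, Myl3, Myl2, Tpm3 and Myh7 stand at 2.94 to 3.62, to the right of every other gene, and the median of all genes is 0.34.

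The summed level of the 10 members was 73.9, 81.6, 1852, 8943 and 1155 CPM in ASO replicates 1 to 5 and 3064, 526, 453, 1237 and 106 CPM in CTRL replicates 1 to 5. They took from 0.00683% (Wilson 95% interval 0.00583% to 0.00800%, counting error only) of the counts in ASO replicate 1 to 0.907% (0.894% to 0.919%) in ASO replicate 4. In CTRL the share ran from 0.0111% to 0.315%. The libraries fell in 1 broad order across both groups, with ASO replicate 4 first, CTRL replicate 1 second and ASO replicates 1 and 2 last. ASO replicate 4 held 74.9% of all member counts of the ASO group. Averaged over 5 libraries, the sum was 2421 ± 3723 CPM (SD) with the ASO and 1077 ± 1184 CPM (SD) with saline, a ratio of 2.25, but the mean log2 level differed by 0.05, and without replicate 4 the ASO mean was 791 ± 871 CPM (SD, n = 4). In these bulk samples, fewer slow fibers in the muscle, fewer in the piece used and less slow RNA per fiber cannot be told apart. The study's methods do not name the part of GAS that was used.

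The members rose and fell together from library to library. Over the 10 libraries, the 15 pairs of tested members without Myl6b had Pearson correlations of log2(CPM + 1) of 0.92 to 0.99 and Spearman correlations of 0.83 to 0.98. After leaving out the 2 libraries farthest from the median in each pair, Pearson's r was 0.89 to 0.99. The 6 pairs with Myl6b had r of 0.48 to 0.65, which ran from -0.15 to 0.84 after leaving out the 2 libraries. The ends of that range rest on different libraries. ASO replicates 1 and 2 were left out for Myl2 with Myl6b (0.84), ASO replicate 4 and CTRL replicate 5 for Myl6b with Tnnc1 (-0.15). The correlations are descriptions without a test, and the points share their library, depth and scaling.

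Within this common course, the proportions between members varied. The ratio of Myl2 to Tnnc1 counts was 3, 1.33, 0.98 and 5.08 in ASO replicates 2 to 5, replicate 1 having 3 and 1 counts, and 0.59, 0.84, 0.56, 0.52 and 1.82 in CTRL replicates 1 to 5. The groups overlapped, since CTRL replicate 5 (20 and 11 counts) lay among the ASO ratios, of which that of replicate 2 rested on 21 and 7 counts. This ratio was chosen after its values were seen and was not tested. Myl2 to Tpm3 spanned 0.30 (ASO replicate 1, from 3 and 10 counts) to 5.54 in ASO and 0.83 to 1.14 in CTRL.

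The balance of slow and fast fibers was read from the ratio of each slow gene to its fast paralogue in the same library. Of 8 pairs, 5 had at least 10 counts of each gene in all and were used. Mylpf, Tnnt3 and Tnnt1 were at 0 counts and Tnni2 had 4. Their segments overlap each other, with 10 bp of Mylpf, 5 bp of Tnni2 and 0 bp of Tnnt3 outside any overlap, so these counts say nothing of their level. The log2 ratio was lower on average in ASO in all 5, by differences of -0.62 for Myh7 to Myh4, -0.85 for Myl3 to Myl1, -2.10 for Tnnc1 to Tnnc2, -1.49 for Tpm3 to Tpm1 and -0.84 for Myoz2 to Myoz1. The sign turned for Myh7 to Myh4 with a pseudocount of 5 CPM (0.081) and without ASO replicate 1, ASO replicate 2 or CTRL replicate 1 (0.26, 0.33 and 0.024) and for Myl3 to Myl1 without ASO replicate 2 (0.65). None passed the two-sided exact permutation test, with p = 0.75, 0.74, 0.40, 0.47 and 0.50 in that order and an adjusted p of 0.75 for each over the 5 pairs. The SD between libraries was 2.40 to 4.69 in ASO and 1.35 to 2.64 in CTRL. In each pair, ASO replicates 1 and 2 were below the lowest control library. For Myh7 to Myh4 this order came only from the Myh4 counts and the pseudocount. Myh7 was at 0 counts in ASO replicates 1 and 2 and in the lowest control library, CTRL replicate 5. In ASO replicate 2, Myl3 was at 0 counts as well. Myh4, the heavy chain of the fastest fibers, had only 42 counts in all 10 libraries, on 41 bp outside overlaps, so its ratio rested on 1 to 9 fast counts per library. Myl1 had 550 counts and Tpm1 3230, compared with 390480 for Tnnc2. In CTRL the mean log2 ratio was 1.62 for Myl3 to Myl1 and 0.03 for Tpm3 to Tpm1, compared with -6.66 for Tnnc1 to Tnnc2. The level of a ratio therefore does not give the share of slow RNA in the muscle.

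**Figure D4:**
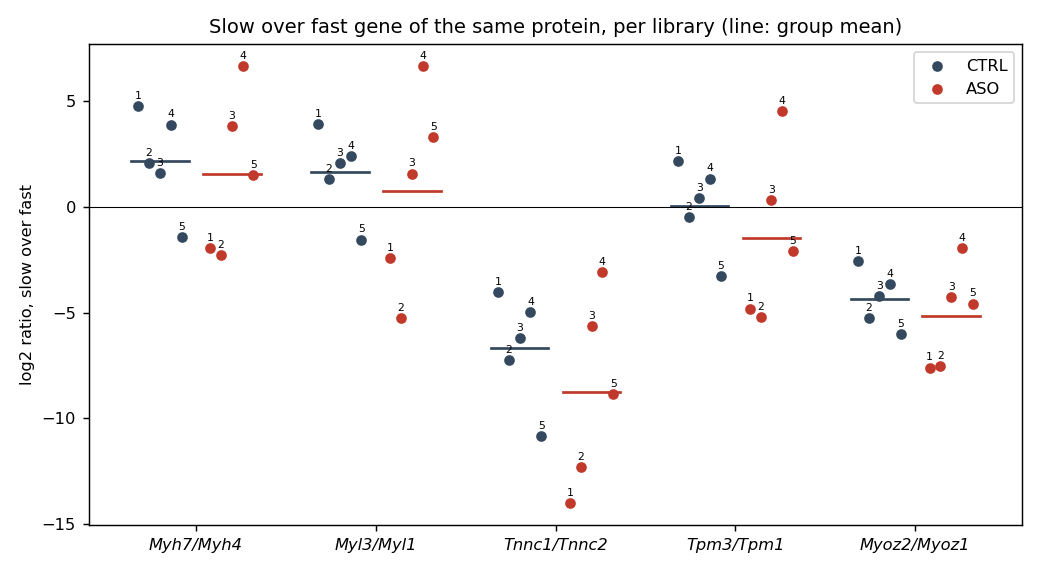
Log2 ratio of slow to fast gene, log2(slow CPM + 1) minus log2(fast CPM + 1), for the 5 usable pairs in each CTRL (dark) and ASO (red) library, with replicate numbers and a line at each group mean. In each pair ASO replicates 1 and 2 are lower than every control library and ASO replicate 4 is higher than every one, and the ASO means are below the CTRL means by 0.62 to 2.10. For Myh7 to Myh4, ASO replicates 1 and 2 and CTRL replicate 5 have 0 Myh7 counts.

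Several fast partners passed the test. Of 12 fast sarcomere genes, 6 were tested and 4 rose in ASO, beside 11.8% over the whole table, and the 6 had a median of 0.88 on the log2 scale. Tnnc2, fast troponin C, rose by 0.79 ± 0.24 and Myoz1, the fast calsarcin, by 0.86 ± 0.21 (SE, adjusted p = 0.029 and 0.0090, edgeR), and Tnnc2 lost its call in 5 of 21 alternatives, at most at an adjusted p of 0.11. Actn3, an actinin of fast Z-discs, rose by 1.79 ± 0.31 and Mybpc2, fast myosin-binding protein C, by 1.54 ± 0.29 (SE, adjusted p = 0.0015 and 0.0025, edgeR). Of the 10 markers of the labelled tissue, 5 were tested, with 3 higher and 0 lower. Ckm rose by 0.93 ± 0.23 and Ttn by 1.41 ± 0.21 (SE, adjusted p = 0.011 and 7.2e-04, edgeR). Acta1, at 0.57 ± 0.21, did not pass (adjusted p = 0.058, edgeR). A rise was thus not seen only in the list of fast sarcomere genes. The test of slow against fast is the ratio above, which did not pass.

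Most other slow fiber genes did not pass the test. Of 7 other slow sarcomere genes, 3 were tested, with 0 higher and 1 lower, beside 11.8% and 17.4% of all tested genes. Fhl1, a LIM protein of the sarcomere, fell by 1.86 on the log2 scale (SE 0.54, adjusted p = 0.021, edgeR), from 3501 ± 1718 CPM in CTRL to 967 ± 820 CPM in ASO (SD, n = 5 each), and was not called without CTRL replicate 4 or on its most distal segment (adjusted p up to 0.14, edgeR). Mybpc1 (0.31 ± 0.48) and Myom3, an M-band protein (0.76 ± 0.77), did not pass. Of 10 slow fiber genes outside the sarcomere, 5 were tested and 0 passed with edgeR in either direction (same background), also 0 at an unadjusted p under 0.05 and 0 with DESeq2 or limma-voom. Their log2 fold changes were -0.16 ± 0.39 for Fabp3, a fatty acid carrier, 0.01 ± 0.40 for Car3, a carbonic anhydrase of slow fibers, 0.51 ± 0.30 for Ckmt2, the mitochondrial creatine kinase, 0.04 ± 0.33 for Hspb6, a small heat shock protein, and 0.17 ± 0.58 for Atp2a2, the slow calcium pump (SE).

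Of 35 regulators of the slow program, 28 were tested, with 2 higher and 9 lower in ASO, beside 11.8% and 17.4% of all tested genes. Purb, a DNA-binding protein described as a repressor of Myh7, rose by 1.65 ± 0.16 (SE, adjusted p = 1.1e-04, edgeR), from 67.3 ± 13.2 to 211 ± 27.04 CPM (SD, n = 5 each). Mef2c, a transcription factor of muscle genes, had a log2 fold change of -3.04 ± 0.31 (SE, adjusted p = 1.1e-04, edgeR). Tead1, which binds MCAT elements, had -3.90 ± 0.51, and Smyd1 had -1.75 ± 0.24 (SE, adjusted p = 3.2e-04 and 4.6e-04, edgeR).

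Genes outside the list rose and fell with the same libraries, some of them over a much narrower range. With the mean log2(CPM + 1) of the 7 tested members as the reference, and each group's mean subtracted, the likeness over 10 libraries (Pearson's r) was taken for 7738 genes whose mean count was 10 or more. The members, which are themselves part of that mean, scored r = 0.78 (Myl6b) to 0.99 (Tpm3). The median over all genes was -0.01, and 28 genes that are no members were over 0.9. The 10 nearest were Sprtn (0.98), Strit1, Smtnl1, Ntn4, Atp1b1, Myom3, Lgi1, Smarce1, Lmna and Ddx56 (0.94). Likeness does not measure the size of the swing. Sprtn ran only from 14.6 CPM in CTRL replicate 5 to 33.8 CPM in ASO replicate 4. The SD within groups of log2(CPM + 1) was 0.32 for Sprtn, 0.27 for Smarce1 and 2.08 for Strit1, compared with a median of 0.34 over all tested genes. Strit1, which encodes a micropeptide of the calcium pump, was at 0, 0, 10.996, 49.3 and 2.36 CPM in ASO replicates 1 to 5 and at 24.1, 3.26, 4.45, 5.90 and 0 CPM in CTRL replicates 1 to 5. Of the 10, Lmna passed the test (log2 fold change 0.93, adjusted p = 0.0096, edgeR). The 5 genes with the most opposite course were Ccdc47 (-0.94), Wiz, Dab2ip, Tmem185a and Helb (-0.92).

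Markers of other cell types were read beside this course. Of 9 heart markers, Myl7, which defines atrial muscle, was at 0 counts on a segment of 43 bp, and Nppa, Nppb and Tnni3 had 3, 2 and 8 counts in all. Myh6 and Tnnt2 were also at 0, but with 5 and 0 bp outside overlapping segments they could hardly be counted. The sum of the heart list was 130 to 1424 CPM in ASO and 97.4 to 356 CPM in CTRL, most of it Actc1, which skeletal muscle also expresses, and the rest largely Myl4. The median likeness of its 2 tested genes was -0.34, with -0.88 for Actc1 and 0.19 for Myl4. The 6 smooth muscle markers summed to 230 to 622 CPM in ASO and 134 to 387 CPM in CTRL, with Smtn at 0, and the median likeness of the 4 tested was 0.74. The 5 markers of embryonic or regenerating fibers summed to 11.1 to 71.8 CPM in ASO and 8.89 to 17.0 CPM in CTRL, with 1 tested gene, Ncam1, at 0.72. Endothelial (5 markers, none at 0, 0.61) and blood markers (5, Alas2 at 0, 0.57) had sums of 146 to 319 and 283 to 1715 CPM in ASO and of 143 to 264 and 891 to 1468 CPM in CTRL. The remaining lists had a median likeness of 0.43 (non-muscle contractile genes), 0.38 (Schwann cells), 0.23 (fibroblasts), -0.05 (macrophages) and -0.34 (adipocytes). The part of these markers in the results was not tested.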

How the data were processed

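Poly(A) RNA of GAS was sequenced in 10 libraries. The authors deposited raw counts of read pairs, made with fastp, STAR on GRCm39 and featureCounts (Gencode M25 annotation), with only the final 500 bp of each 3′UTR counted and no strand option named. Of 52423 segments, 52361 were matched to genes through GENCODE M39 and summed per gene. The 62 others (0.0197% of counts) and 4 columns that match no sample were not used. The test for each gene was that of edgeR 4.0.16 under R 4.3.3 (TMM, filter on low counts by group, quasi-likelihood test, Benjamini-Hochberg over all tested genes, 0.05). The SE of an edgeR log2 fold change was derived from the test, as its absolute value divided by the square root of the F statistic. CPM use the TMM-scaled totals of tested genes, with a pseudocount of 1 on the log2 scale. The floor for a count of 0 was 3 counts. DESeq2 1.42.0, limma-voom 3.58.1 and other settings were alternatives. On simulated data the edgeR step was checked before use. Named genes were the members, the fast partners, up to 4 genes per list (those past the threshold with the smallest adjusted p, otherwise those with the highest mean), and the 10 nearest and 5 most opposite genes by likeness; Atp2a2, Strit1 as an example, and single markers were named after their values were seen. The members and lists were chosen with earlier results of these data known.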

Additional observations from a re-analysis of the deposited data

Results flagged for a closer look

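Dixon's test at 95% was applied within each group of 5 libraries. It picked out a level when its gap to the nearest other library was unusually wide for the group's range. Levels and their sum were taken as CPM, and the slow over fast ratios on the log2 scale. By chance the test picks out about 1 in 20 groups of normally distributed values, a condition that the skewed CPM of the members did not meet. Of 30 groups, 10 were picked out here. ASO replicate 4 was the library in 8 of them. Its levels were 268 CPM for Myh7, 2022 CPM for Myl2, 1360 CPM for Myl3, 192 CPM for Myl6b, 2054 CPM for Tnnc1, 1847 CPM for Tpm3, 1174 CPM for Myoz2 and 8943 CPM for the sum of the members. CTRL replicate 1 was the library in the others, at 420 CPM for Myl3 and 6.13 CPM for Tnni1, the latter from 13 counts. The 10 are not independent, since the same libraries and the same summed level enter them. No slow over fast ratio was picked out, on a scale that differs from that of the levels.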

How the results depend on the processing

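Genes called higher were 528 with total counts and 388 with the most distal segment only, where 602 were lower. Members called higher were 0 with total counts, limma-voom, robust edgeR, the most distal segment and DESeq2 (which gave Myl6b no p), and 0 to 1 leaving out 1 library. With limma-voom the log2 fold changes were -0.33 for Myh7, -0.074 for Myl2, -0.60 for Myl3, -1.50 for Tnnc1 and -0.69 for Tpm3. The mean log2 ratio was 0.081 for Myh7 over Myh4 with a pseudocount of 5 CPM, and 0.70 for Tpm3 over Tpm1 on the most distal counted segments, which rests on 9 Tpm3 counts in all and is not read as a change of that ratio. Leaving out 1 library at a time gave -0.61 to 2.86 for Myh7, -0.23 to 2.80 for Myl3, -1.37 to 1.69 for Tnnc1, -0.96 to 2.17 for Tpm3 and -0.31 to 1.38 for Myoz2, the lowest without ASO replicate 4 and the highest without CTRL replicate 1. The segments gave -0.52 to 2.92 (Myh7), -0.13 to 2.87 (Myl3), -1.27 to 1.76 (Tnnc1), -0.86 to 2.24 (Tpm3, upstream end) and -0.74 to 1.08 (Myoz2, upstream). The log2 ratios ranged from -1.90 to 0.33 for Myh7 over Myh4 and from -2.32 to 0.65 for Myl3 over Myl1, the lowest without ASO replicate 4 and the highest without ASO replicate 2. The causes were not tested.

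With the replicate number as a block, 662 genes were higher and 1172 lower, and the members kept their sides of the threshold (median log2 fold change 0.91, Myl6b 1.31, adjusted p = 0.017, edgeR), except that the upstream Myoz2 segment went to -0.055. Deviations of same-numbered libraries correlated at -0.43 to 0.16, so the numbers were not taken to pair them. Tnnt1 and the most distal ends of Tpm3 and Tnni1 could not be counted.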
